A study of Mus musculus with 12 samples.

Results

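The 35 transcripts described here encode the proteins that seal and couple the epithelial cells of the epididymis. They were taken as a list by symbol, namely 17 claudins, 6 genes of the occludin, tricellulin and JAM families (Ocln, Marveld2, Marveld3, F11r, Jam2, Jam3), 4 tight junction scaffold proteins (Tjp1, Tjp3, Cgn, Cgnl1), 5 cadherins and catenins (Cdh1, Cdh2, Cdh3, Ctnnb1, Ctnna1) and 3 connexins (Gja1, Gjb1, Gjb2). All 35 were measured, of 22184 genes that had at least 1 probe-set of their own symbol on the array. Each gene was read from 1 probe-set, and where there were more (3 genes, Cldn19, Cdh1 and Cdh2) the brightest on average was taken.

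Whole transcript arrays (Affymetrix Mouse Gene 2.0 ST) were hybridized with RNA of the cauda and corpus epididymidis of Dicer1 cKO mice (Defb41iCre/wt;Dicer1fl/fl) and control mice (Dicer1fl/fl), with 3 arrays for each region and genotype and 12 in all. Both genotypes carried the floxed Dicer1 alleles on a mixed C57Bl/6N and SV129 background, and their ages are not given in the sources used here. The iCre of the cKO is driven by Defb41, a gene of principal cells in the initial segment and caput, so Dicer1, the nuclease that matures microRNAs, is deleted upstream of the regions analysed, and neither Cre nor the deletion is directed at the corpus or cauda. The left and right tissue of a region had been pooled within a mouse, and nothing in the sources says which corpus and cauda arrays came from 1 mouse.

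Tight junctions close the space between epithelial cells: claudins form the strands that decide which ions pass, occludin and the tricellulin family sit in the strands and at the corners where cells meet, JAM proteins are immunoglobulin-fold adhesion molecules, and Tjp and cingulin proteins tie the strands to actin. Adherens junctions hold the cells together through cadherins bound to catenins, and connexins form the gap junction channels through which neighbouring cells exchange small molecules. In the epididymis these complexes make up the blood-epididymis barrier, which keeps a luminal fluid whose composition changes from caput to cauda and shields maturing sperm from the immune system.

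Values are log2 intensities, so a difference of 1 is a doubling of signal, and levels of different genes are not compared because each probe-set binds with its own strength. Array medians lay between 5.19 and 5.31. Of the 35 genes, 29 were above the median of every array, Cldn6 and Cldn18 were below it on all 12, and Cldn2, Cldn16, Cdh2 and Gjb2 fell on both sides. Dicer1 itself had a log2 intensity of 7.71 to 7.77 in cauda cKO and 7.51 to 7.64 in cauda control, and of 7.41 to 7.61 in corpus cKO and 7.37 to 7.65 in corpus control, which does not check the labels because the deletion lies outside these regions. On the second principal component of all probe-sets, with 13.8% of the variance, corpus cKO replicates 1 and 2 lay at 58.8 and 53.7, whereas corpus cKO replicate 3 lay at -36.6 beside the corpus controls (-9.68 to -35). Values that moved by over 1.5 times, or a call that changed, when that array was left out are therefore given both ways for the genes described. That array was picked out from these same data for lying beside the controls, and leaving it out favours larger differences between genotypes. Calls made without it are described and not taken as support. The 6 epithelial marker genes averaged 9.39 to 9.55 in cauda cKO, 9.19 to 9.56 in cauda control, 9.61 to 9.81 in corpus cKO and 9.37 to 9.55 in corpus control, and none of them was below the array median on all arrays. These are whole tissues, in which fewer cells of a type and less RNA per cell cannot be told apart.

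**Figure D1:**
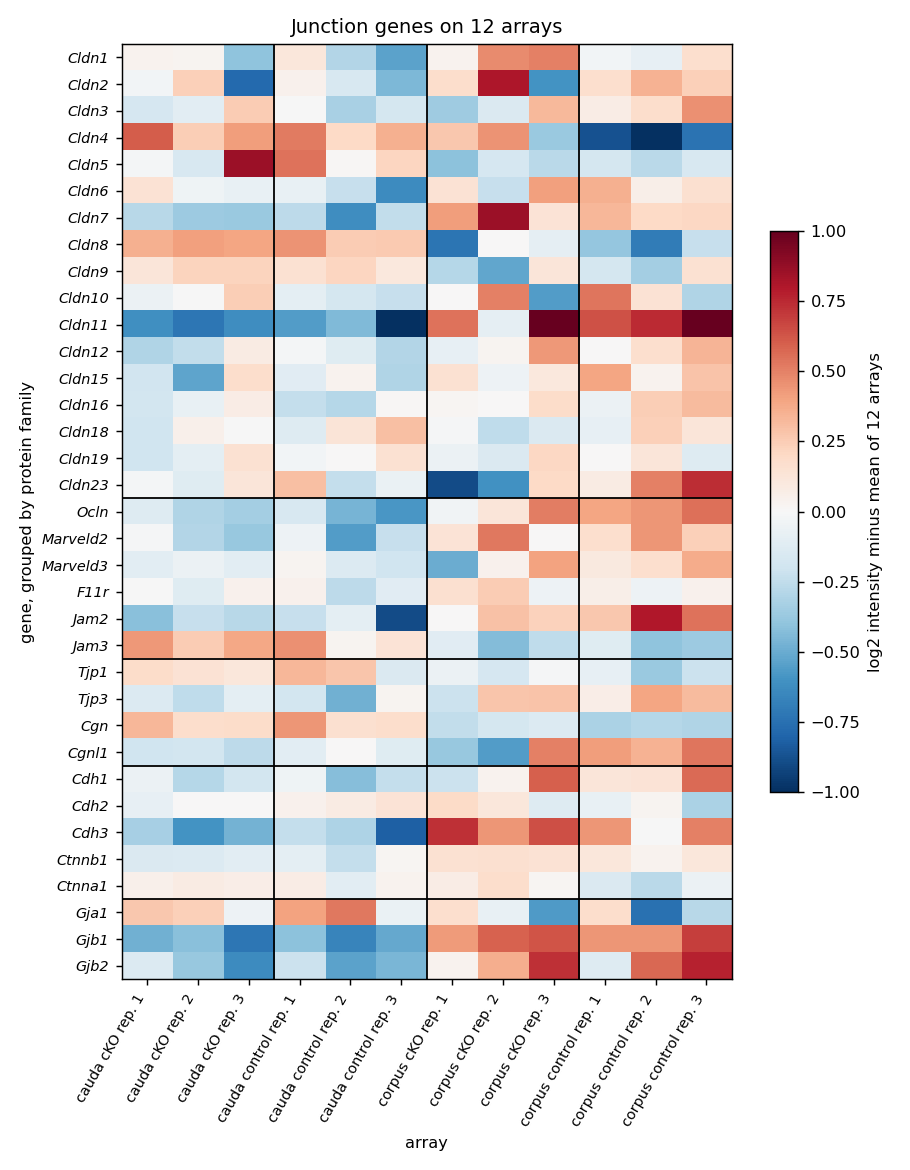
Log2 intensity of the 35 junction genes on each of the 12 arrays, minus the gene's mean over the 12, with genes in rows by protein family (lines part the families) and arrays in columns by group (color scale from -1 to 1, larger differences at the ends of the scale). Cldn11, Cdh3 and Gjb1 are pale to blue in the 6 cauda arrays and mostly red in the 6 corpus arrays, and Cldn4 is blue on the 3 corpus control arrays.

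Junction genes passed the test between cauda and corpus and not between genotypes. In control mice, 6 of the 35 passed an adjusted p of 0.05 in limma, against 3.52% of all 41345 probe-sets and 6.1% of the 20672 brighter ones. Cldn4 and Cgn were higher in the cauda (as were 1.77% of probe-sets), and Cldn11, Gjb1, Jam2 and Ocln were lower (1.75%). In Dicer1 cKO mice 4 of the 35 passed, against 2.69% of all probe-sets and 4.93% of the brighter ones, and all were lower in the cauda (1.05% of probe-sets were, and 1.64% were higher): Cdh3, Cldn11, Cldn7 and Gjb1.

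Gjb1, a connexin abundant in liver and in myelinating Schwann cells and encoded on chromosome X, gave the most reproducible difference. Its log2 intensity was 6.16, 6.22 and 5.92 in cauda cKO (replicates 1 to 3, as in all lists of this kind), against 7.07, 7.23 and 7.27 in corpus cKO. In controls it was 6.23, 5.98 and 6.13 in the cauda and 7.08, 7.08 and 7.33 in the corpus. Every cauda array lay below every corpus array in both genotypes. The log2 fold change was -1.09 in cKO mice (standard error 0.14, adjusted p = 0.00133 from limma) and -1.05 in controls (standard error 0.14, adjusted p = 0.00161 from limma), a signal 2.13 and 2.07 times lower in the cauda. Both calls held under every alternative setting and with any single array left out, with adjusted p-values of at most 0.0221 in cKO mice and 0.0158 in controls.

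Cldn11, which forms the tight junctions of Sertoli cells and of central myelin, was lower in the cauda as well. It had a log2 intensity of 7.49, 7.38 and 7.48 in cauda cKO and 8.64, 8.01 and 9.23 in corpus cKO. In controls the values were 7.54, 7.66 and 7.05 in the cauda and 8.74, 8.85 and 9.14 in the corpus. The regions did not overlap in either genotype, and the corpus cKO arrays were the most scattered (SD 0.612, against 0.063 in cauda cKO). Cauda minus corpus was -1.18 in cKO mice (standard error 0.27, adjusted p = 0.0427 from limma) and -1.49 in controls (standard error 0.27, adjusted p = 0.0112 from limma). In cKO mice the call was lost on leaving out any array other than corpus cKO replicate 2 or cauda control replicate 3 (adjusted p = 0.0544 to 0.145 from limma), with each probe-set's own variance (0.107) and with only the compared arrays fitted (0.152), and in controls on leaving out corpus control replicate 3 (0.0591) or cauda control replicate 3 (0.0507). The promoter of Cldn11 is shown with those of Cgn and Cldn4, so that the sequence around the start can be read beside the levels. These are the genes called between regions in controls that had exactly 1 start in the RefSeq table for GRCm38.p6. Genes called only in cKO mice were not considered. Each window holds 300 bases on the gene's own strand, 5′ to 3′, and lies at chr3:31149670-31149969 (plus strand) for Cldn11, chr3:94786433-94786732 (minus strand) for Cgn and chr5:134946885-134947184 (minus strand) for Cldn4. Capitals mark matches, on either strand, to AACNNGTT (grainyhead factors), TGANTCA (AP-1) and GGGCGG (Sp factors, CCGCCC on the other strand), none of which overlapped another in these windows.
Cldn11: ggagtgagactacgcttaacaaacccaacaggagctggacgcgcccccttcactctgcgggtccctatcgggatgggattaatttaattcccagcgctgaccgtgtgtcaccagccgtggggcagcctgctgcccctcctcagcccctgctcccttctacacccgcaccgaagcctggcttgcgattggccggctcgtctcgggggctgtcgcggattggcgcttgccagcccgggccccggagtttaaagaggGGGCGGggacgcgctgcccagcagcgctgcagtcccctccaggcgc
Cgn: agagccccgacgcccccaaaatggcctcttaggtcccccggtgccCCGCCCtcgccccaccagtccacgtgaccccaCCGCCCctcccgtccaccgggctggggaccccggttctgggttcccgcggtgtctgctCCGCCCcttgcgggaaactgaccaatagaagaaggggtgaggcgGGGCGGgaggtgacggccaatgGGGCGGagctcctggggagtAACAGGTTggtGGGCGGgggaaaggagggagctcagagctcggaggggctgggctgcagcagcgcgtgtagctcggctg
Cldn4: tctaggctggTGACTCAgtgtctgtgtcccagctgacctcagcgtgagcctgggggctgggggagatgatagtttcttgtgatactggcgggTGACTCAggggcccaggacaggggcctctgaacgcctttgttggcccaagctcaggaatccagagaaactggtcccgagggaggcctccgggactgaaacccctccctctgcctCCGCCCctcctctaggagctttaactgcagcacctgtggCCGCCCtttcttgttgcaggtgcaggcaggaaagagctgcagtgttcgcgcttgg

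Read as letters only, the Cldn4 window held 2 matches to TGANTCA, both TGACTCA, and 2 to GGGCGG. The Cgn window held 6 matches to GGGCGG and 1 to AACNNGTT, and the Cldn11 window held 1 to GGGCGG. Of all 32851 windows in the table, 7.81% held TGANTCA, 4.2% held AACNNGTT and 35.7% held GGGCGG. Among the 38 windows of the 25 junction genes that the table lists, 4 held TGANTCA (Cldn4, Cldn15, F11r and Gja1), 2 held AACNNGTT (Cgn and Cldn5) and 25 held GGGCGG. The motif TATAAA, searched on both strands too, was in 5 of the 38 and in 13.6% of all, and in none of the 3 windows shown. A match to such short letters is a description of the sequence and not a binding site.

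Cldn4, a claudin of tight epithelia that limits the passage of ions between cells, was higher in the cauda of control mice. Its log2 intensity was 9.64, 9.28 and 9.45 in cauda cKO and 9.30, 9.48 and 8.66 in corpus cKO, and in controls it was 9.55, 9.23 and 9.39 in the cauda and 8.16, 7.94 and 8.29 in the corpus. The 3 corpus control arrays were the lowest of the 12, and cauda and corpus overlapped in cKO mice but not in controls. The log2 fold change was 0.31 in cKO mice (standard error 0.21, adjusted p = 0.621 from limma) and 1.26 in controls (standard error 0.21, adjusted p = 0.00656 from limma), a signal 2.4 times higher in the control cauda. The control call held under every alternative setting and with any array left out (adjusted p at most 0.0315). Without corpus cKO replicate 3 the regional value in cKO mice was 0.07 (adjusted p = 0.916 from limma). The difference of the cKO effects, corpus minus cauda, was 0.95 (standard error 0.29, adjusted p = 0.69 from limma) and did not pass.

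Cgn, the cytoskeletal adaptor cingulin, was the other gene that passed the adjusted threshold with higher signal in the control cauda. It had a log2 intensity of 8.01, 7.85 and 7.86 in cauda cKO and 7.43, 7.5 and 7.54 in corpus cKO, and in controls 8.12, 7.84 and 7.85 in the cauda and 7.36, 7.39 and 7.38 in the corpus. All 6 cauda arrays lay above all 6 corpus arrays. The regional difference, on the log2 scale, was 0.42 in cKO mice (standard error 0.12, adjusted p = 0.11 from limma) and 0.56 in controls (standard error 0.12, adjusted p = 0.026 from limma). The control call was lost without corpus control replicate 1 (0.0817), 2 (0.0735) or 3 (0.0909), without cauda control replicate 1 (0.0815) or 3 (0.0508), with arrays centred on their medians (0.0585) and with only the compared arrays fitted (0.102).

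Ocln, the founding transmembrane protein of the tight junction strand, and Jam2, an adhesion molecule also known from endothelium, were lower in the control cauda. Ocln had a log2 intensity of 8.53, 8.36 and 8.32 in cauda cKO and 8.63, 8.78 and 9.17 in corpus cKO, against 8.5, 8.20 and 8.08 in cauda control and 9.06, 9.10 and 9.21 in corpus control. Cauda arrays were below corpus arrays in both genotypes, with the narrower gap in cKO mice. Cauda minus corpus was -0.46 in cKO mice (standard error 0.16, adjusted p = 0.228 from limma, and -0.30 without corpus cKO replicate 3) and -0.86 in controls (standard error 0.16, adjusted p = 0.0152 from limma). The control call was lost without corpus control replicate 3 (0.0725) and without cauda control replicate 2 (0.0607) or 3 (0.0641).

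Jam2 had a log2 intensity of 7.84, 8.03 and 7.98 in cauda cKO and 8.26, 8.55 and 8.49 in corpus cKO, against 8.03, 8.16 and 7.36 in cauda control and 8.53, 9.06 and 8.80 in corpus control. The regions did not overlap in either genotype, and cauda control replicate 3 was the lowest array. The log2 fold change was -0.49 in cKO mice (standard error 0.21, adjusted p = 0.347 from limma) and -0.95 in controls (standard error 0.21, adjusted p = 0.0312 from limma). The control call was lost with each probe-set's own variance (0.0713), with only the compared arrays fitted (0.115), and without corpus control replicate 2 (0.114) or 3 (0.107), cauda cKO replicate 2 (0.0511) or cauda control replicate 3 (0.0793).

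**Figure D2:**
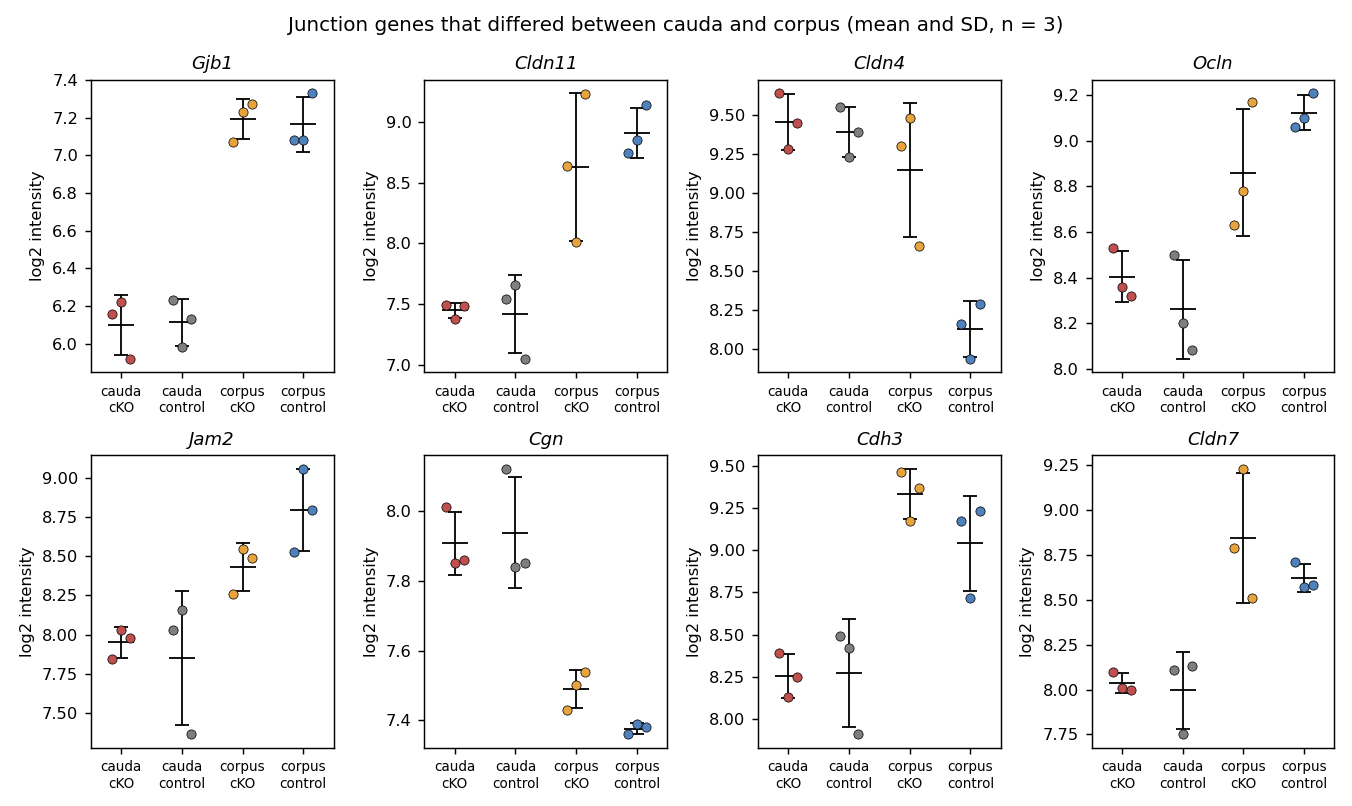
Log2 intensity of the 8 junction genes with an adjusted p under 0.05 between cauda and corpus in either genotype, with 1 point for each array and bars for the mean and SD (n = 3 each, y axes not from 0 and different for each gene). For Gjb1 the cauda arrays reach at most 6.23 and the corpus arrays start at 7.07, whereas for Cldn4 the 3 corpus control arrays, at 7.94 to 8.29, stand below the other 9.

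Cdh3, or P-cadherin, is the classical cadherin of basal and placental epithelia. Its log2 intensity was 8.39, 8.13 and 8.25 in cauda cKO and 9.46, 9.17 and 9.37 in corpus cKO, against 8.49, 8.42 and 7.91 in cauda control and 9.17, 8.72 and 9.23 in corpus control. The regions did not overlap in either genotype. On the log2 scale the regions differed by -1.08 in cKO mice (standard error 0.19, adjusted p = 0.0106 from limma) and -0.77 in controls (standard error 0.19, adjusted p = 0.0514 from limma), and the cKO effect, corpus minus cauda, was 0.31 (standard error 0.27, adjusted p = 0.893 from limma). The cKO call was lost without cauda cKO replicate 2 (0.0557). The control value passed when only the brighter probe-sets (0.0236) or those with 1 symbol (0.0231) were tested, with the mean of all probe-sets of a gene (0.022), after a further quantile normalization (0.0421), with a random replicate block (0.0466) and without corpus control replicate 2 (0.0361).

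Cldn7, a claudin of the lateral membrane, had a log2 intensity of 8.10, 8.01 and 8.00 in cauda cKO and 8.79, 9.23 and 8.51 in corpus cKO, against 8.11, 7.75 and 8.13 in cauda control and 8.71, 8.57 and 8.58 in corpus control. Again no cauda array reached a corpus array of its genotype. Cauda minus corpus was -0.81 in cKO mice (standard error 0.18, adjusted p = 0.0373 from limma) and -0.62 in controls (standard error 0.18, adjusted p = 0.0945 from limma). The cKO call held only when the array left out was corpus cKO replicate 3 or cauda control replicate 2 or 3, and with any other array left out the adjusted p was 0.0543 to 0.133. It was also lost with each probe-set's own variance (0.0695), with only the compared arrays fitted (0.15) and after a further quantile normalization (0.0587).

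Over the whole list, more genes had cauda signal below corpus signal than above it. At an unadjusted p under 0.05, 14 of the 35 genes differed between cauda and corpus in cKO mice (4 higher and 10 lower, against 12.8% of all probe-sets, 7.01% higher and 5.8% lower) and 19 in controls (6 higher and 13 lower, against 15.9%, 8.03% higher and 7.87% lower). Cauda and corpus arrays did not overlap for 15 genes in cKO mice (6 higher and 9 lower, against 18.2% of all probe-sets, 9.75% higher and 8.45% lower) and for 24 in controls (6 higher and 18 lower, against 22%, 10.2% higher and 11.8% lower). For these 2 kinds of count the share of the brighter probe-sets is not given, although most of the list is bright. At the adjusted threshold that share was the larger one (4.93% against 2.69% in cKO mice, 6.1% against 3.52% in controls). The median log2 fold change of the list was -0.1 in cKO mice, beside 0.01 over all probe-sets, and -0.32 in controls, beside -0.01. Of the 6 epithelial marker genes, which include Cdh1, the median was -0.30 in cKO mice and -0.44 in controls, where Krt18 (-0.83) was lower and Krt19 (1.83) higher in the cauda at an adjusted p under 0.05. The part of epithelial content in the list's values was not tested. In each genotype 23 of the 35 genes had a negative value, against 20097 of all 41345 probe-sets in cKO mice and 21118 in controls.

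Within the families, all 5 cadherins and catenins had negative values in cKO mice (-1.08 to -0.02) and 3 of 5 did in controls. Of the occludin, tricellulin and JAM genes, 5 of 6 were negative in each genotype, and Jam3 was the exception, with 0.63 in cKO mice (adjusted p = 0.0531 from limma) and 0.50 in controls (adjusted p = 0.105). Among the connexins, Gjb2, a partner of Gjb1 in liver gap junctions, had -0.76 in cKO mice (adjusted p = 0.173 from limma) and -0.81 in controls (adjusted p = 0.115). Gja1, the connexin most widely expressed in the body, had 0.30 in cKO mice (0.10 without corpus cKO replicate 3) and 0.57 in controls, at adjusted p-values of 0.729 and 0.312. The claudins were split, with 9 of 17 negative in cKO mice and 11 of 17 in controls.

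**Figure D3:**
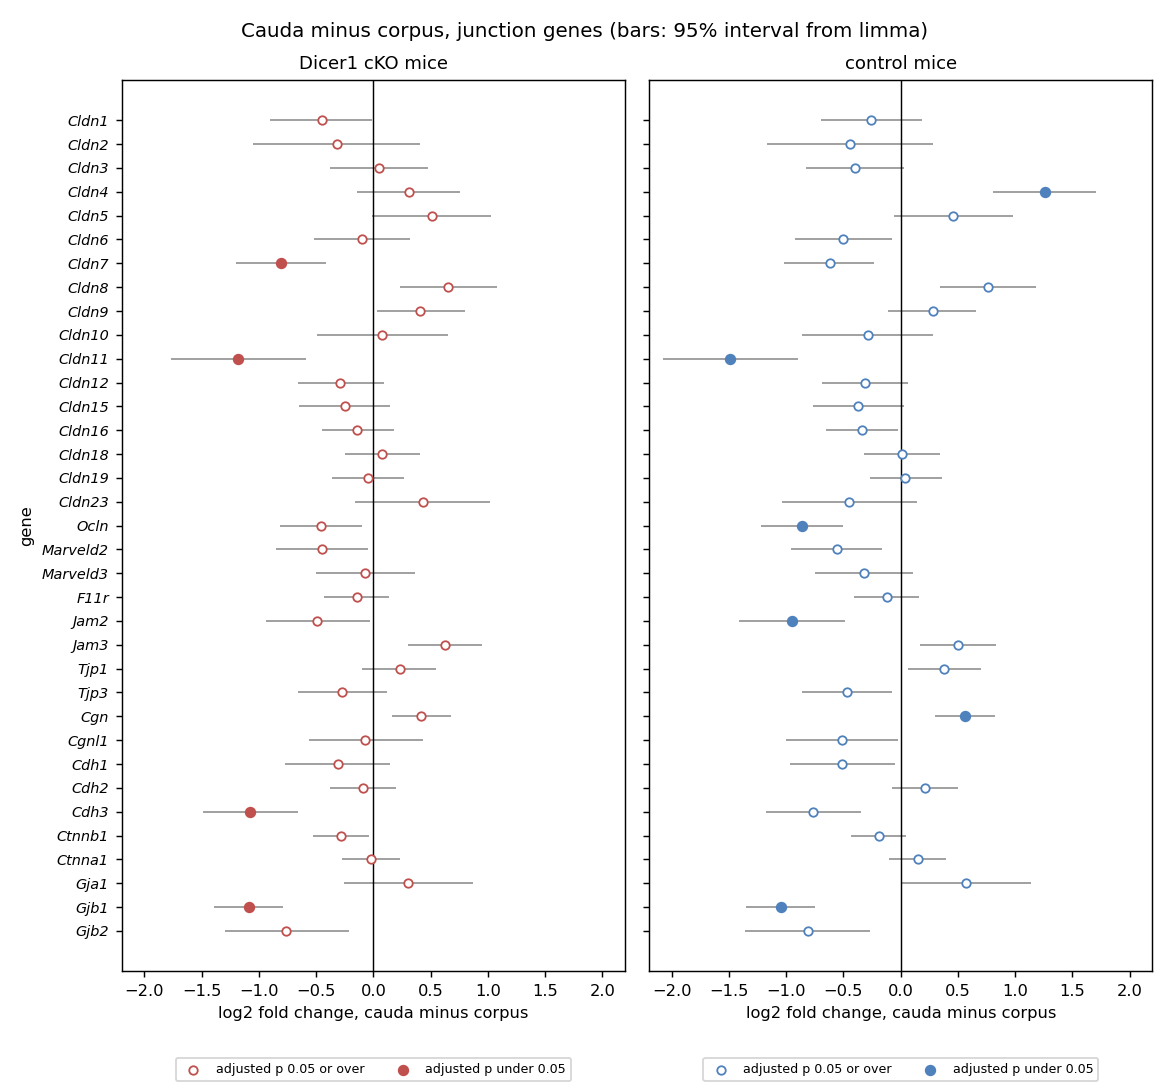
Log2 fold change of cauda minus corpus for each of the 35 junction genes in Dicer1 cKO mice (left) and control mice (right), with 95% intervals from limma and filled points at an adjusted p under 0.05. Filled points lie at -0.81 to -1.18 in cKO mice, and in controls at -0.86 to -1.49 for 4 genes and at 0.56 and 1.26 for Cgn and Cldn4.

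The 6 junction genes with the highest mean probe-set signal (Cldn3, Cldn8, Ctnnb1, Cdh1, Cldn1 and F11r), a signal that does not rank transcript amounts, had no adjusted p under 0.05 between regions. Cldn3, a strand-forming claudin of many simple epithelia, had a log2 intensity of 11.68, 11.74 and 12.10 in cauda cKO and 11.49, 11.70 and 12.17 in corpus cKO, against 11.84, 11.52 and 11.67 in cauda control and 11.92, 12.02 and 12.30 in corpus control. The regions overlapped in cKO mice and were apart in controls, with log2 fold changes of 0.05 and -0.40 (adjusted p = 0.957 and 0.354 from limma). Without corpus cKO replicate 3 the value in cKO mice was 0.25.

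Cldn8, known from the distal nephron as a cation barrier, had 11.17, 11.23 and 11.21 in cauda cKO and 10.09, 10.82 and 10.73 in corpus cKO, against 11.27, 11.07 and 11.08 in cauda control and 10.43, 10.12 and 10.59 in corpus control. Every cauda array was above every corpus array. The regional log2 fold change was 0.65 in cKO mice (adjusted p = 0.12 from limma) and 0.76 in controls (adjusted p = 0.0565 from limma), so neither passed. The control value did when only the brighter probe-sets (0.0262) or those with 1 symbol (0.0259) were tested, with the mean of all probe-sets of a gene (0.0246), after a further quantile normalization (0.046) and without corpus cKO replicate 1 (0.0171).

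Ctnnb1 encodes beta-catenin, which links cadherins to alpha-catenin. It had 10.54, 10.55 and 10.58 in cauda cKO and 10.84, 10.85 and 10.83 in corpus cKO, against 10.59, 10.45 and 10.71 in cauda control and 10.80, 10.72 and 10.80 in corpus control. These were among the tightest replicates of the list, and the regions differed by -0.28 in cKO mice and -0.19 in controls (adjusted p = 0.278 and 0.457 from limma).

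Cdh1 encodes E-cadherin, the main cadherin of epithelia. Its values were 10.19, 9.96 and 10.06 in cauda cKO and 10.03, 10.28 and 10.84 in corpus cKO, against 10.20, 9.82 and 10.01 in cauda control and 10.37, 10.38 and 10.81 in corpus control. The regions overlapped in cKO mice and not in controls (log2 fold changes -0.31 and -0.51, adjusted p = 0.624 and 0.259 from limma), and the value in cKO mice was -0.08 without corpus cKO replicate 3.

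Cldn1, a claudin of basal and epidermal cells, had 9.77, 9.76 and 9.33 in cauda cKO and 9.77, 10.21 and 10.24 in corpus cKO, against 9.85, 9.44 and 9.20 in cauda control and 9.71, 9.65 and 9.90 in corpus control. F11r, the first JAM protein, had 9.72, 9.60 and 9.77 in cauda cKO and 9.88, 9.98 and 9.67 in corpus cKO, against 9.77, 9.46 and 9.61 in cauda control and 9.78, 9.67 and 9.77 in corpus control. Cauda and corpus arrays of both genes overlapped or met in each genotype. Their log2 fold changes were -0.45 (Cldn1) and -0.14 (F11r, -0.23 without corpus cKO replicate 3) in cKO mice and -0.26 and -0.12 in controls, none of which passed (adjusted p of at least 0.376 from limma).

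Other junction genes and their regulators differed between the regions too. Amot, a scaffold that binds polarity and Hippo proteins, was higher in the cauda by 2.16 in cKO mice (standard error 0.16, adjusted p = 4.98e-05 from limma) and 1.97 in controls (standard error 0.16, adjusted p = 0.000119 from limma), while the polarity protein Pard6b was lower (-0.65 in each). These were the only calls among 16 measured scaffold and polarity genes in each genotype. Of 19 other adherens junction genes the kidney cadherin Cdh16 (-1.97 in both genotypes) and the liver and intestine cadherin Cdh17 (-2.36 in cKO mice, -1.78 in controls) were lower in the cauda, and no gene was higher. Perp, a desmosomal membrane protein, was higher (1.00 in cKO mice, 0.73 in controls) as the single call among 13 desmosome genes. Of those 13, 5 were below the array median on all arrays.

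Of 13 other immunoglobulin-fold and angulin genes, the adherens junction protein Nectin2 was lower in the cauda of both genotypes (-0.73 in cKO mice, -0.80 in controls). In controls Ildr2, an angulin of tricellular contacts, was lower (-2.26) and Nectin3 higher (0.86). No call was made among 11 other claudins or 16 other connexins and pannexins. Of these, 7 of the 11 claudins and 8 of the 16 connexins and pannexins were below the array median on all arrays. A missing call on such dim probe-sets says little. Among 12 measured transcription factors known to regulate epithelial junction genes, Grhl1 was higher in the cauda (0.69 in cKO mice, 0.59 in controls) and Ovol1 lower (-0.99 and -1.09). Elf3 was lower in cKO mice (-1.11), and in controls Ehf was lower (-0.82) and Zeb1, a repressor of E-cadherin, was higher (0.87). Grhl2, which activates Cdh1 and Cldn4 in other epithelia, had 0.01 in cKO mice and -0.14 in controls (adjusted p = 0.987 and 0.734 from limma).

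Markers of the muscle coat moved with the regional comparison. The 8 smooth muscle genes averaged 11.37 to 11.81 in cauda cKO and 10.06 to 10.68 in corpus cKO, and 11.34 to 11.61 in cauda control and 9.44 to 9.88 in corpus control, with 5 of 8 higher in the cauda at an adjusted p under 0.05 in cKO mice and 7 of 8 in controls. None of the 8 was below the array median on all arrays. The 7 fibroblast genes averaged 10.45 to 10.56 in cauda cKO and 9.83 to 10.68 in corpus cKO, against 10 to 10.32 in cauda control and 9.4 to 9.81 in corpus control. The 9 spermatid and sperm genes averaged 6.28 to 7.03 in cauda cKO and 5.96 to 8.86 in corpus cKO, against 9.01 to 9.86 in cauda control and 7.16 to 8.4 in corpus control. The part of these cells in the junction gene differences was not tested.

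In the corpus, no junction gene passed the adjusted threshold between Dicer1 cKO and control mice. The count was 0 of 35, against 0% of all 41345 probe-sets, in limma and with each probe-set's own variance. At an unadjusted p under 0.05 it was 3 of 35 (Cldn4 higher, Cldn23 and Cgnl1 lower), against 8.35% of all probe-sets, 4.26% higher and 4.09% lower. Of the 35 genes, 32 had a log2 fold change within 0.5 of 0 and 22 within 0.2. Of all 41345 probe-sets, 37291 lay within 0.5 and 24630 within 0.2, so these counts are not particular to the list. The median was -0.06, beside -0.03 over all probe-sets. Arrays of cKO and control mice did not overlap for 4 genes, against 11.8% of probe-sets, and all 4 were higher in cKO mice (5.85% of probe-sets were, and 5.99% were lower): Cldn4, Cgn, Ctnna1 and Ctnnb1. With 3 arrays against 3, an exact permutation test of a single gene cannot give a p below 0.1.

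Cldn4 had the largest difference of the list in the corpus. The log2 intensities given above (9.30, 9.48 and 8.66 in corpus cKO, against 8.16, 7.94 and 8.29 in corpus control) did not overlap, and corpus cKO replicate 3 was the closest to the controls. On the log2 scale the genotypes differed by 1.02 (standard error 0.21, adjusted p = 0.262 from limma), a signal 2.02 times higher in cKO mice. This comparison and the regional step in controls share the 3 corpus control arrays, on which Cldn4 was lowest. Without corpus cKO replicate 3 the log2 fold change was 1.26 (adjusted p = 0.00581 from limma).

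Cldn23, an atypical claudin also known from intestinal epithelium, had a log2 intensity of 7.0, 7.29 and 8.10 in corpus cKO and 7.98, 8.4 and 8.64 in corpus control. Replicates 1 and 2 of the cKO were below all controls, and replicate 3 was within the control range. cKO minus control was -0.88 (standard error 0.27, adjusted p = 0.393 from limma), and it was -1.19 (adjusted p = 0.0252 from limma) without corpus cKO replicate 3. In the cauda its values were 7.88, 7.78 and 8.02 in cKO mice and 8.20, 7.66 and 7.83 in controls, with a log2 fold change of 0.00.

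Cgnl1, the cingulin relative paracingulin of tight and adherens junctions, was picked out after its values were seen. It had 7.33, 7.15 and 8.22 in corpus cKO and 8.13, 8.06 and 8.25 in corpus control, so that again replicates 1 and 2 of the cKO were low and replicate 3 lay among the controls. The genotypes differed by -0.58 (standard error 0.22, adjusted p = 0.498 from limma) with all arrays and -0.90 (adjusted p = 0.0068 from limma) without corpus cKO replicate 3. Without that array these 3 genes were the junction genes that passed, against 861 of 41345 probe-sets or 2.08%. At an unadjusted p under 0.05 there were then 8 of the 35 (2 higher and 6 lower), against 13.8% of probe-sets. That array was picked out in these same data for lying beside the controls, so these calls are a description and not an independent test.

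**Figure D4:**
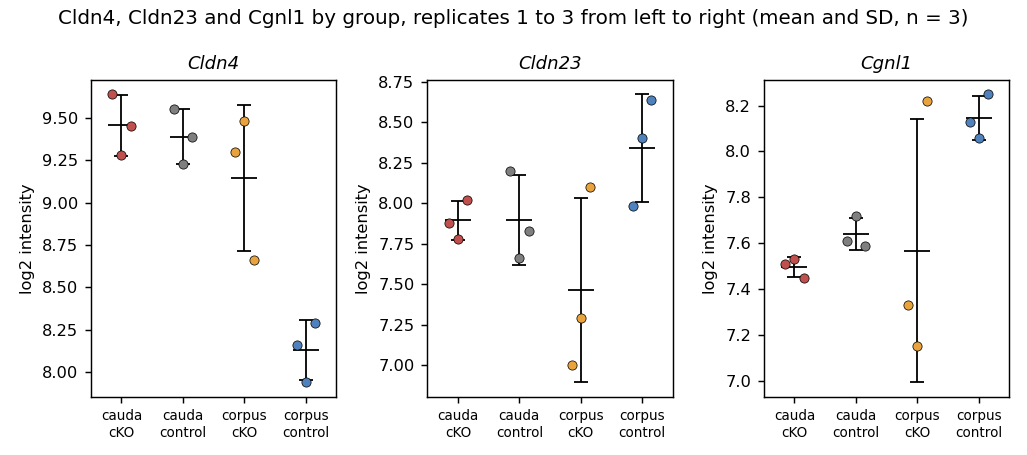
Log2 intensity of Cldn4, Cldn23 and Cgnl1 by group, with replicates 1 to 3 from left to right and bars for the mean and SD (n = 3 each, y axes not from 0). In the corpus cKO group replicates 1 and 2 of all 3 genes lie outside the corpus control range, and replicate 3 is within it for Cldn23 and Cgnl1 and 8.66 against at most 8.29 in controls for Cldn4.

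The main adhesion genes did not pass the test in the corpus with or without corpus cKO replicate 3. Ctnna1, or alpha-catenin, had 9.58, 9.68 and 9.53 in corpus cKO and 9.36, 9.24 and 9.45 in corpus control, a log2 fold change of 0.24 (adjusted p = 0.613 from limma). Ctnnb1 differed by 0.07 (95% interval -0.17 to 0.31) and the scaffold Tjp1 by 0.15 (adjusted p = 0.869 from limma). For Gjb1 the difference was 0.02 (95% interval -0.27 to 0.32), and without corpus cKO replicate 3 it was -0.01 (95% interval -0.35 to 0.33). For Cdh1 it was -0.14 (95% interval -0.60 to 0.32) with all arrays and -0.37 (95% interval -0.77 to 0.04) without that array. Ocln differed by -0.26 (95% interval -0.62 to 0.10) with all arrays and by -0.42 (95% interval -0.76 to -0.07, adjusted p = 0.252 from limma) without it. The intervals given for these genes leave out a doubling of signal in either direction.

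Read array by array, corpus cKO replicates 1, 2 and 3 had 11, 11 and 15 of the 35 genes within the range of the 3 corpus controls, and 6, 6 and 3 genes more than 0.5 from the control mean. The same counts over all probe-sets were not made. For the list the median absolute difference from the control mean was 0.2, 0.24 and 0.21, beside 0.23, 0.23 and 0.2 over all probe-sets. By that measure replicate 3 was no nearer to the controls than replicate 1. Cell type markers differed on some or all of the same arrays. The 8 clear cell genes averaged 7.86, 7.53 and 8.53 in corpus cKO against 8.36 to 8.45 in controls, the 8 macrophage and lymphocyte genes 8.80, 7.70 and 7.53 against 7.15 to 7.54, and the 7 fibroblast genes 10.68, 10.15 and 9.83 against 9.40 to 9.81. The 8 smooth muscle genes averaged 10.20, 10.68 and 10.06 in corpus cKO against 9.44 to 9.88 in controls. Of these lists 1 clear cell gene and no other was below the array median on all arrays. Cd79a, of the macrophage and lymphocyte list, went the other way, with a log2 fold change of -0.81 (adjusted p = 0.288 from limma). The 7 principal cell genes, 1 of them below the array median on all arrays, averaged 9.24, 9.61 and 9.48 in corpus cKO against 9.80 to 10.04 in controls. Smooth muscle and fibroblast genes were thus above all controls, and principal cell genes below them, on all 3 cKO arrays, replicate 3 included. The 6 epithelial marker genes were above all controls on the 3 arrays too (9.61, 9.81 and 9.75 against 9.37 to 9.55). Among these, Krt19 had a log2 fold change of 1.33 (adjusted p = 0.0874 from limma), and the others lay between -0.14 and 0.10. The part of these cells in the junction gene values was not tested.

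In the cauda the junction genes of Dicer1 cKO mice lay near those of controls. None of the 35 passed the adjusted threshold, against 0% of all probe-sets, in limma and with each probe-set's own variance. None had an unadjusted p under 0.05 either, against 5.66% of probe-sets. The log2 fold changes ran from -0.15 (Cldn18) to 0.32 (Cldn6), both on probe-sets below the array medians. Of the 35, 33 were within 0.2, against 27622 of all 41345 probe-sets. Cldn4 differed by 0.07 (95% interval -0.39 to 0.52), Gjb1 by -0.02 (95% interval -0.32 to 0.28) and Cldn11 by 0.03 (95% interval -0.56 to 0.62).

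Arrays of the 2 genotypes did not overlap in the cauda for 3 genes, against 10.8% of probe-sets. Cldn10, a claudin that forms paracellular ion pores, had 6.12, 6.17 and 6.42 in cauda cKO and 6.08, 6.00 and 5.95 in cauda control. Cdh2, or N-cadherin, had 5.21, 5.30 and 5.30 in cauda cKO and 5.34, 5.38 and 5.43 in cauda control, near the array medians of 5.19 to 5.31. Cgnl1 had 7.51, 7.53 and 7.45 in cauda cKO and 7.61, 7.72 and 7.59 in cauda control. Each of these gaps was small, with log2 fold changes of 0.23, -0.12 and -0.14. Cauda cKO replicates 1, 2 and 3 had 23, 25 and 22 of the 35 genes within the control range. For the list the median absolute difference from the control mean was 0.1, 0.08 and 0.12, beside 0.17, 0.17 and 0.19 over all probe-sets. The sperm genes named above were at 6.28 to 7.03 in cauda cKO and 9.01 to 9.86 in cauda control. Clear cell genes averaged 7.97 to 8.11 in cauda cKO against 8.24 to 8.44 in cauda control. Fibroblast genes averaged 10.45 to 10.56 against 10 to 10.32, and Schwann cell genes, near the array medians, 5.28 to 5.36 against 4.94 to 5.12. The other marker lists overlapped. The part of these cells in the junction gene values was not tested.

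**Figure D5:**
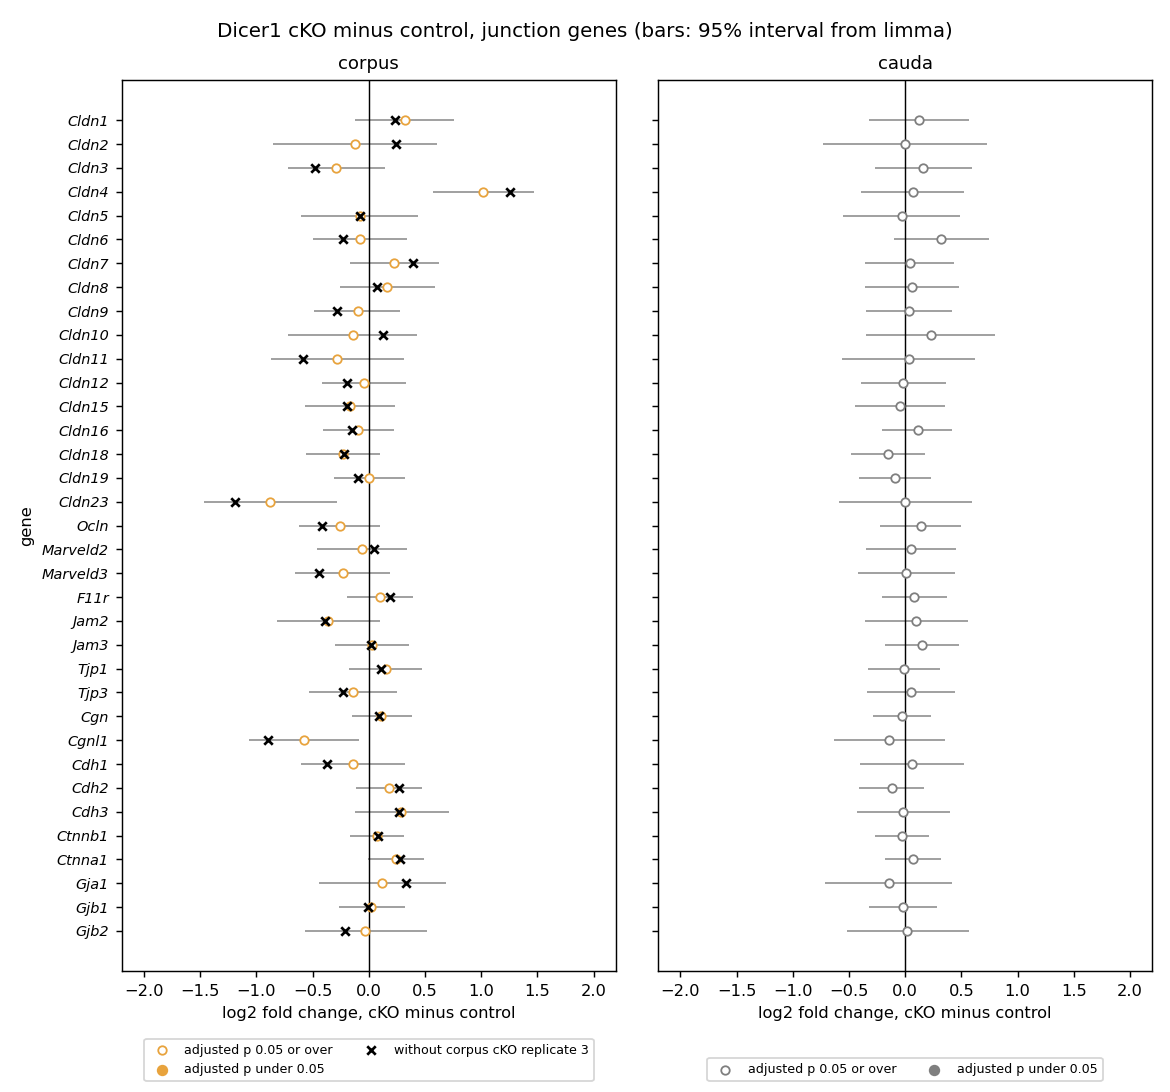
Log2 fold change of Dicer1 cKO minus control for each of the 35 junction genes in the corpus (left) and the cauda (right), with 95% intervals from limma and crosses for the corpus value without corpus cKO replicate 3. All points are open, since no adjusted p was under 0.05 with all arrays, and the points of the cauda stay between -0.15 and 0.32 while those of the corpus reach 1.02 for Cldn4 and -0.88 for Cldn23.

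The difference of the cKO effects between the regions, corpus minus cauda, passed for 0 of 35 junction genes, against 0% of all probe-sets from limma and with each probe-set's own variance. At an unadjusted p under 0.05 there were 2 genes, against 6.5% of probe-sets, namely Cldn4 as given above and Cldn23 (-0.88, standard error 0.38, adjusted p = 0.766 from limma). Averaged over both regions, the cKO effect also passed for 0 of 35, against 0%, and at an unadjusted p under 0.05 there were 3 genes, against 7.97%. These were Cldn4 (0.54, adjusted p = 0.349 from limma), Cldn23 (-0.44, adjusted p = 0.604) and Cgnl1 (-0.36, adjusted p = 0.607). Without corpus cKO replicate 3, Cldn4 (0.66, adjusted p = 0.0363 from limma) and Cgnl1 passed for the mean of both regions, against 0.663% of all probe-sets. The limit on calls made without that array holds here too.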

How the data were processed

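RNA of the corpus and cauda epididymidis was hybridized to Affymetrix Mouse Gene 2.0 ST arrays according to the methods, whereas the labels describe the labelling for miRNA arrays. The probe-set identifiers are those of the gene arrays. As deposited, values are on a log2 scale, after the authors' background correction and normalization with RMA (robust multi-array averaging, Partek). RMA is also the tool in the submitters' processing notes, where it has no version. They were used unchanged, with no filter on dim probe-sets. Of 41345 probe-sets, 23525 carry 1 symbol in the platform annotation, 1816 several and 16004 none here. Precision is limited by 3 arrays per group, and since nothing shows that replicates share no step of handling, p-values measure the spread between these samples.

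Groups and replicate numbers came from the sample titles. One mean per group was fitted over all 12 arrays with limma 3.58.1 (R 4.3.3), with 6 contrasts, two-sided tests and Benjamini-Hochberg adjustment over all probe-sets. The fit had 8 residual degrees of freedom and 3.18 prior degrees of freedom (prior variance 0.0515). It was tested on simulated data. The alternatives were each probe-set's own variance (the methods' pairwise contrasts), fewer probe-sets, the mean of all probe-sets of a gene, quantile normalization, median centring, a fit of the compared arrays alone, a replicate block (statmod 1.5.0) and each array left out.

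The junction genes, the other lists and the tests were chosen with earlier results of these data known. Genes were given array by array where they reached an adjusted p under 0.05 in any contrast or an unadjusted p under 0.01 between genotypes, or were among the 6 with the highest mean, and Cgnl1 was added after its values were seen, as were its alternatives, those of Cldn8 and Cdh3 in controls, the values of all genes without corpus cKO replicate 3 and the background of the brighter probe-sets. Genes of other lists were named among the 4 with the smallest p, and Grhl2 and genes named beside counts were chosen after their values were seen. Windows around transcript starts are from RefSeq for GRCm38.p6.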

Additional observations from a re-analysis of the deposited data

How the results depend on the processing

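Between cauda and corpus, the number of junction genes called was 4 in cKO mice and 6 in controls, and over the alternatives it was 2 to 6 and 4 to 9. The share of all features called in the same settings was 1.2% to 7.62% and 2.53% to 9.4%. When only the arrays compared were fitted, with fewer samples, 2 genes (Cdh3 and Gjb1) were called in cKO mice, against 1.2%, and 4 in controls (Cgn and Jam2 lost), against 2.7%. With single arrays left out it was 1 to 4 in cKO mice (against 1.49% to 4.03% of all probe-sets), with 1 (Gjb1) without cauda cKO replicate 2 (1.49%), and 2 to 8 in controls (1.62% to 4.91%), with 2 (Cldn4 and Gjb1) without corpus control replicate 3 (1.62%) or cauda control replicate 3 (1.99%). Between cKO and control the count was 0 in each region, for their difference and for their mean under every alternative that keeps all arrays of the comparison. With single arrays left out it was 0 to 3 in the corpus and 0 to 2 for the mean of both regions, above 0 only when corpus cKO replicate 3 was omitted. For the cauda and the difference it stayed 0. No value recomputed under every alternative changed sign, and those were values called or near the threshold. Without corpus cKO replicate 3, which was recomputed for all 35 genes, 5 genes changed sign in the corpus, all within 0.14 of 0 with all arrays, Gjb1 and Cldn2 among them. The cause of these changes was not tested.

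The replicate numbers were not taken as pairing, because the sources do not say which arrays share a mouse or a batch. Correlations of the arrays' deviations from their group means cannot decide this. For same-numbered arrays they were 0.0669 to 0.11 between cauda and corpus in cKO mice and -0.0385 to 0.0816 in controls. Between genotypes they were 0.0853 to 0.208 in the corpus and 0.0217 to 0.0688 in the cauda. In no comparison did all pairs exceed 0.1. Every array correlated best with its own number between genotypes in the corpus and between regions in cKO mice, but not in the other two comparisons. With the replicate number as a block, 3 junction genes were called between cauda and corpus in cKO mice (Cldn11 and Cldn7 lost at adjusted p = 0.0677 and 0.0644 from limma, Jam3 gained) and 7 in controls, and as a random block 5 and 7. In cKO mice 2.87% of all probe-sets were called with the block and 2.83% with the random block, beside 2.69% without. In controls the shares lay in the range given above for the alternatives. Between genotypes the block gave 0 in all comparisons.

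With 3 arrays per group and corpus cKO arrays that scatter more (median SD of the junction genes 0.271, against 0.166 in corpus control), a p that missed the threshold does not show equal levels. The 2 junction genes below every array median, Cldn6 and Cldn18, were read near background signal. Cldn2 and Cldn16 were above the median on only 1 of 12 arrays each, and Cdh2 and Gjb2 on 9 and 8, so their values are dim too.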

Other observations

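Junction genes outside the list were also read between genotypes in the corpus, where none passed the adjusted threshold in limma. The alpha-catenin of neurons, Ctnna2, had the smallest p among 19 other adherens junction genes, with a log2 fold change of -0.99 in cKO mice (adjusted p = 0.339 from limma). Among 13 desmosome genes the desmosomal cadherins Dsg1a (-0.72) and Dsg2 (-0.40) had the smallest p (adjusted p = 0.473 and 0.517 from limma). Lsr, an angulin of tricellular contacts, had 0.35 (adjusted p = 0.563 from limma). In the cauda none passed either, and the gene with the smallest p among the scaffold and polarity genes was Amotl2, at -0.35 in cKO mice (adjusted p = 0.608 from limma).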
